A study of Mus musculus with 3 samples.

Results

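Mitotic cells of the mouse mitral valve were taken from 1 pooled matrix as the cells in which at least 3 of 10 genes of cell division had a value above 0, namely Bub1, Nuf2, Kif14, Nek2, Knl1, Aspm, Cenpf, Iqgap3, Ckap2l and Ube2c. The members were thus chosen by their measured values of these 10 genes. The rule found 72 of 16383 cells, a share of 0.439% with a 95% exact binomial interval of 0.344% to 0.553%. The 3 samples listed with the matrix are mitral valves of homozygous B6.129-Fbn1tm2Rmz/J (mgR) mice of 12 weeks, whose hypomorphic Fbn1 allele gives too little fibrillin-1. Wild-type littermates and rapamycin-treated mgR mice were also profiled, by single cells or single nuclei, and the barcodes name neither mouse nor genotype nor kind of library. The matrix was therefore treated as 1 sample, cells stands for barcodes of either kind, no test between groups was possible, and every interval covers counting error only. Each level is the sum of UMIs (unique molecular identifiers, 1 for each captured transcript) over a group of cells, per 10000 of all UMIs of those cells.

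A dividing cell copies its DNA in S phase and then, in G2 and mitosis, builds a spindle whose microtubules attach to each chromosome at its kinetochore. The spindle checkpoint holds the cell until all chromosomes are attached, and the anaphase-promoting complex then marks cyclins and securin for destruction. Many genes of these steps are transcribed late in the cycle and their transcripts are scarce in resting cells. In the adult valve, endothelial cells cover the leaflet, fibroblasts (interstitial cells) fill it, and leukocytes, mostly macrophages, lie among them, so a set of dividing cells can come from any of these lineages.

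The promoters of late cell cycle genes often hold a short element written TTTGAA, known as a cell cycle genes homology region, together with CCAAT boxes. To show how such sequence looks in the genes that chose the cells, 125 bases before the start of 4 of the 10 genes and of Ect2, which was higher in mitotic cells and was not used to choose them, are given here from RefSeq (build GRCm38.p6), 5′ to 3′ along the gene, from 132 to 8 bases before the start. Capitals mark TTTGAA or CCAAT on either strand, so that TTCAAA and ATTGG are the same motifs read from the other strand. The last 24 bases of the Ube2c stretch lie inside the gene as GENCODE M21 draws it.
Ube2c, chr2:164769797-164769921, plus strand: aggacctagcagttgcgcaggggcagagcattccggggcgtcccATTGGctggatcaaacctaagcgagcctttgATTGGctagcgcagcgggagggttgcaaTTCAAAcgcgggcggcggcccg
Ckap2l, chr2:129297220-129297344, minus strand: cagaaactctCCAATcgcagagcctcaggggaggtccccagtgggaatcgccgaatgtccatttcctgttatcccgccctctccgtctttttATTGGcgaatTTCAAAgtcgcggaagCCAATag
Bub1, chr2:127831867-127831991, minus strand: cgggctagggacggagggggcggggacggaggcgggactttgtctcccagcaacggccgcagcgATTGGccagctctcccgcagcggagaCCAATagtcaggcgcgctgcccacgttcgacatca
Cenpf, chr1:189688094-189688218, minus strand: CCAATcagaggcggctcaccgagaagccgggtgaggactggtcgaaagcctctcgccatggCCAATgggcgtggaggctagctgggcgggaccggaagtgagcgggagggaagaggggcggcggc
Ect2, chr3:27153886-27154010, minus strand: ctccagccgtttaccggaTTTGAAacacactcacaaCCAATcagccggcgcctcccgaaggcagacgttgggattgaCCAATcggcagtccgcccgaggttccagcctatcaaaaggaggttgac

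Within 250 bases before the start, TTTGAA was found in 4 of the 10 genes (Ube2c, Ckap2l, Iqgap3 and Kif14) and CCAAT in 7 of them. Of the 2472 genes of the matrix with a RefSeq promoter, 13.3% held TTTGAA and 33.5% held CCAAT in the same window, and over all 27025 RefSeq genes the shares were 16.3% and 34.5%. Of the 29 other genes at least 10 times higher in mitotic cells, 22 had a promoter entry, and 6 of these held TTTGAA and 14 held CCAAT. A match shows only that these letters are present. Nuf2 and Knl1 held neither motif in this window.

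The matrix lists 3265 genes of chromosomes 1, 2 and part of 3, so cell cycle genes of other chromosomes, such as Mki67 and Top2a, were not analysed here. Mitotic cells had a median of 8555 UMIs (range 1211 to 17859), against 5342 in all other cells. The barcodes form 2 alphabetical runs, of 14222 and 2161 cells, which held 57 and 15 mitotic cells, and 11 barcodes occur in both runs, of which 0 belong to a mitotic cell. The share of mitotic cells was 0.401% in the first run (interval 0.304% to 0.519%) and 0.694% in the second (0.389% to 1.14%), where the median depth of all cells was 6918 UMIs against 5154.

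The 10 genes were rarely seen outside the chosen cells, and most cells held none of them. Of all cells, 15961 held 0 of the 10 genes, 342 held 1, and 8 held 2, just outside the rule. The rule then took in 7 cells with 3 genes, 8 with 4, 9 with 5, 13 with 6, 8 with 7, 8 with 8, 13 with 9 and 6 with all 10. The 8 cells just outside had a median of 3 UMIs of the 10 genes together and a median depth of 7918.5 UMIs. The 7 cells just inside had a median of 5 UMIs of the 10 genes and a median depth of 6561 UMIs. The number of cells thus falls steeply from 1 to 2 genes and stays level from 2 genes upward. Because these values chose the cells, what follows for the 10 genes is a description.

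The 10 genes together made up a median of 19.5 UMIs in a mitotic cell (range 3 to 94). Together the 72 cells held 1967 UMIs of them, 79.0% of those in the matrix. Of the kinetochore genes, Knl1, the scaffold that receives the checkpoint kinases (chr2:119047119-119105501), was found in 90.3% of mitotic cells and 0.368% of other cells, with 423 UMIs in mitotic cells and up to 22 in 1 cell. Bub1, a checkpoint kinase that binds Knl1 (chr2:127801122-127831865), was found in 68.1% of mitotic cells, with 113 UMIs against 5 in all other cells. Nuf2, part of the complex that grips microtubules (chr1:169497934-169531464), was found in 59.7%, with 73 UMIs against 8. Cenpf, a large protein of the outer kinetochore and nuclear matrix (chr1:189640606-189688086), was found in 80.6%, with 464 UMIs against 171, and 1 cell outside the rule held 14 of those.

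Of the genes of the spindle and of cytokinesis, Ckap2l, a spindle protein (chr2:129268210-129297212), was found in 87.5% of mitotic cells, and Aspm, which acts at spindle poles (chr1:139454772-139494091), was found in 76.4%. Kif14, a kinesin needed for the end of cytokinesis (chr1:136466343-136531511), was found in 66.7%, and Iqgap3, a scaffold of the cell cortex (chr3:88081971-88121048), in 65.3%. The markers seen in fewest mitotic cells were Ube2c, the ubiquitin-conjugating enzyme of the anaphase-promoting complex (chr2:164769898-164778822), in 37.5%, and Nek2, a centrosome kinase (chr1:191821444-191833050), in 25%. In other cells each of the 10 genes was found in at most 0.521% of cells. Coordinates are those of GENCODE M21 on GRCm38.

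**Figure D1:**
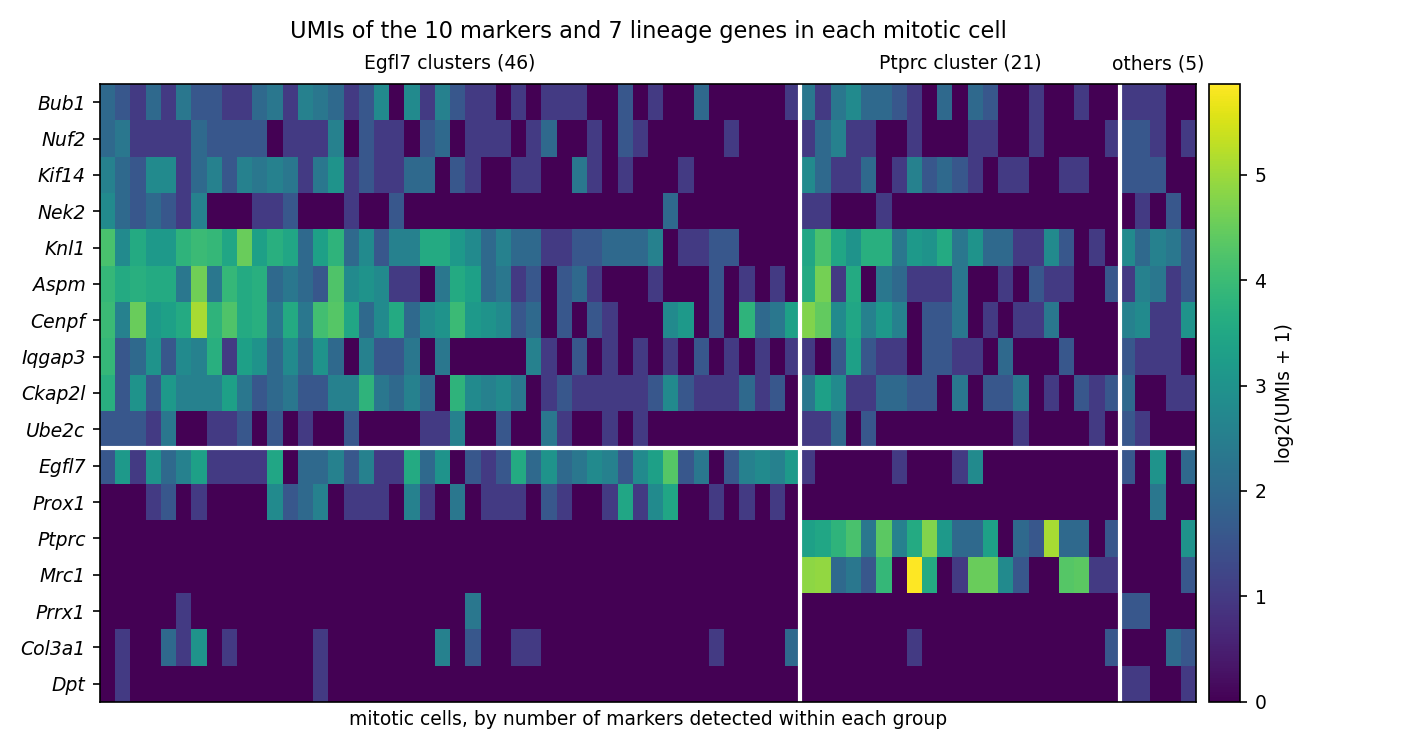
UMIs, as log2(UMIs + 1), of the 10 genes that chose the cells (above the horizontal line) and of 7 lineage genes (below it) in each of the 72 mitotic cells, which are columns ordered by the number of the 10 genes detected within each group of clusters. Ptprc and Mrc1 are at 0 in all 46 cells of the Egfl7 clusters and are present in most of the 21 cells of the Ptprc cluster, and the 5 cells at the right belong to clusters with fibroblast genes.

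The lineage of the mitotic cells was read first from 5 genes that the rule did not use, and differed from that of the other cells mainly by more Ptprc and less of the 3 fibroblast genes. Egfl7, a secreted protein of endothelial cells, was at 3.81 UMIs per 10000 in mitotic cells (95% exact Poisson interval 3.33 to 4.35) and at 4.13 in other cells (4.09 to 4.17), a ratio of 0.922 (0.805 to 1.05). It was found in 50 of 72 mitotic cells, with a median of 2 UMIs and at most 19, so its pooled level was not distinguishable from that in other cells at this depth. The runs differed here, with a ratio of Egfl7 of 1.08 (0.929 to 1.24) in the first and 0.480 (0.330 to 0.675) in the second. Ptprc, which encodes the leukocyte antigen CD45, was at 3.27 (2.82 to 3.76) against 0.517 (0.502 to 0.531), 6.32 times higher (5.44 to 7.31). It was found in 20 mitotic cells, 27.8% of them, against 4.32% of other cells, and 18 of these 20 held at least 3 UMIs of it. Taken by run, Ptprc had a ratio of 6.44 (5.31 to 7.74) in run 1 and of 4.83 (3.77 to 6.09) in run 2.

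The fibroblast genes were lower in mitotic cells. Prrx1, a transcription factor of mesenchymal cells, was at 0.154 (0.0704 to 0.292) against 0.945 in other cells, a ratio of 0.163 (0.0745 to 0.309), and was found in 4 mitotic cells. Dpt, a matrix protein that binds decorin, had 5 UMIs in 5 mitotic cells, a level of 0.0855 (0.0278 to 0.2) against 0.803 and a ratio of 0.107 (0.0346 to 0.249). Col3a1, the chain of type III collagen, was at 0.598 (0.417 to 0.832) against 1.95, a ratio of 0.306 (0.213 to 0.426), and was found in 16 mitotic cells with at most 7 UMIs. In the first and second run the ratios were 0.156 and 0.261 for Prrx1, 0.0825 and 0.207 for Dpt, and 0.364 and 0.0678 for Col3a1, all under 1.

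Mitotic cells were deeper than the rest, so shares were also taken at a matched depth of 2000 UMIs per cell, drawn at random, without the 4 mitotic and 1274 other cells that were shallower. Egfl7 was then found in 36.8% of 68 mitotic cells (25.4% to 49.3%) and 41.5% of 15037 other cells, and Ptprc in 23.5% (14.1% to 35.4%) and 3.35%. Col3a1 was found in 11.8% (5.22% to 21.9%) against 21.0%, and Prrx1 in 2.94% (0.358% to 10.2%) against 11.9%. Dpt was found in 0 of 68 against 10.9%, where a count of 0, taken to allow 3 counts, leaves room for a share of up to 4.41%. The difference in Ptprc, Prrx1 and Dpt was thus present at matched depth, while the higher unthinned share of Egfl7 in mitotic cells (69.4% against 57.2%) was not. For Col3a1 the share in other cells lay within the interval of the mitotic cells.

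**Figure D2:**
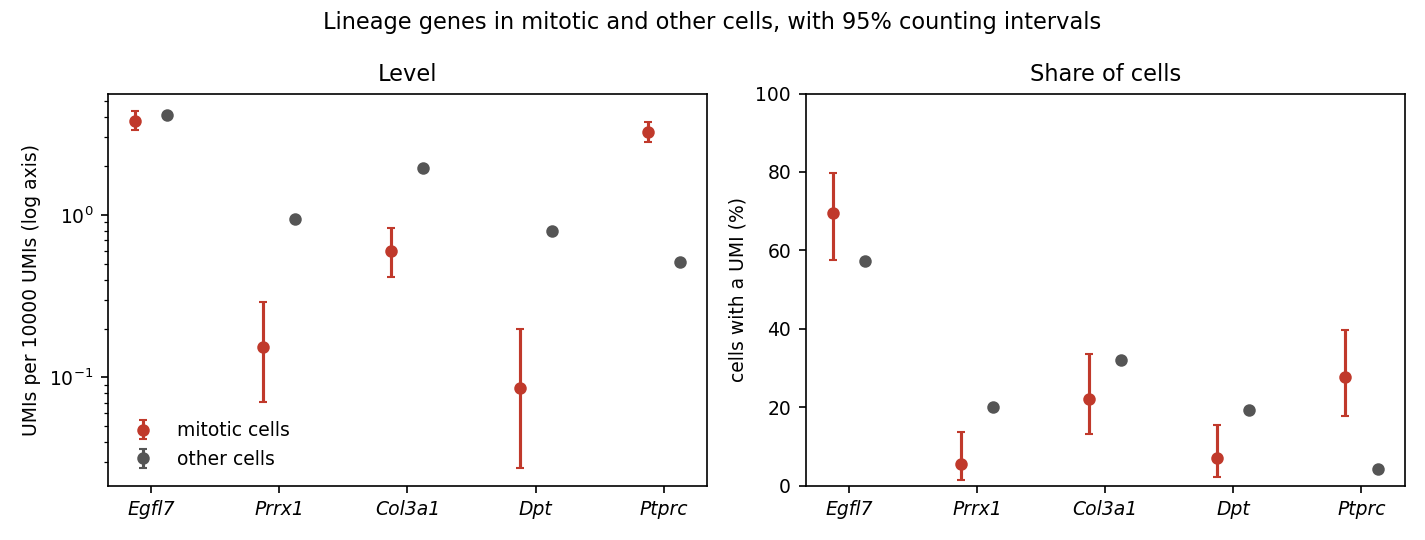
Level in UMIs per 10000 UMIs (left, log axis) and share of cells with a UMI (right, in %) of 5 lineage genes in the 72 mitotic cells and the 16311 other cells, with 95% exact counting intervals. Ptprc lies higher in mitotic cells, Prrx1, Col3a1 and Dpt lie lower, and the intervals of Egfl7 overlap.

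Cell by cell, most mitotic cells held Egfl7 or Ptprc without the other. Of the 72 mitotic cells, 45 held Egfl7 without Ptprc, 15 held Ptprc without Egfl7, 5 held both and 7 held neither. Among other cells the first 2 patterns made up 56.2% and 3.24%. Both genes were found in 6.94% of mitotic cells and 1.07% of other cells, and neither in 9.72% and 39.5%. At least 2 of the 3 fibroblast genes were found in 7 mitotic cells (9.72%), and 6 of these 7 also held Egfl7. Cells with Egfl7 and at least 2 fibroblast genes, which can be 2 cells under 1 barcode, were 8.33% of mitotic cells and 2.54% of other cells. No doublet caller was run, and the part of doublets in these values was not tested.

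Clusters were then made from all cells without the 10 genes and without the cell cycle lists described further on. This clustering put 21 mitotic cells in a cluster marked by Ptprc, 17 in clusters marked by Egfl7, 1 in a cluster with the fibroblast genes and 33 in a cluster of 272 cells in which Egfl7 and the 3 fibroblast genes were all above their overall shares. The 10 leading genes of the last cluster were cell cycle genes that had been left out of the clustering. Leading genes were ranked over all genes, and the cluster held 33 mitotic cells, so this ranking does not show what formed it. Its median depth was 10079.5 UMIs against 5349 in all cells. A second clustering, added after seeing the data, also left out the genes at least 10 times higher in mitotic cells. Of the 33 cells, it placed 29 in clusters marked by Egfl7, 3 in a cluster of 239 cells with both kinds of gene and 1 with the fibroblast genes. It gave 46 mitotic cells in Egfl7 clusters (63.9%, interval 51.7% to 74.9%), 21 in the Ptprc cluster (29.2%, 19.0% to 41.1%), 2 with the fibroblast genes and 3 in the mixed cluster. The first clustering at resolutions 0.2 and 1.0 gave 46 and 47 cells in Egfl7 clusters and 21 in Ptprc clusters, and at 1.0, 30 of the 47 formed a cluster of mitotic cells alone. The second clustering is used from here on.

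The share of mitotic cells differed beyond the counting error between the Ptprc cluster, the Egfl7 clusters and the cluster with the fibroblast genes. It was 3.33% in the Ptprc cluster (21 of 630 cells, 2.07% to 5.05%), 0.435% in the Egfl7 clusters (46 of 10581, 0.318% to 0.579%) and 0.0416% in the cluster with the fibroblast genes (2 of 4809, 0.00504% to 0.150%). The mixed cluster had 1.26% (3 of 239, 0.260% to 3.62%), an interval that overlaps those of the Ptprc cluster and the Egfl7 clusters. The share in the Ptprc cluster was 7.67 times that in the Egfl7 clusters (4.35 to 13.1), and the share in the Egfl7 clusters was 10.5 times that in the fibroblast gene cluster (2.73 to 88.9). The median depths of the 3 groups were 5336, 5238 and 5472 UMIs. When cells were thinned to 2000 UMIs before they were chosen, the shares were 2.29%, 0.369% and 0.0451%, in the same order. In the first clustering they were 3.36%, 0.161% and 0.0207%, and the mixed cluster, with 33 of its 272 cells, had the highest share, 12.1%. In the cluster of 114 cells marked by Mlph, a melanosome transport gene, 0 cells were mitotic (interval 0% to 3.18%). That interval covers the share in the Egfl7 clusters, so this cluster could not be told apart from them.

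The order of the 3 groups was the same within each run of barcodes. In the first run the Ptprc cluster had 14 mitotic cells of 478 (2.93%), the Egfl7 clusters 40 of 9034 (0.443%) and the fibroblast gene cluster 1 of 4376 (0.0229%). In the second run they had 7 of 152 (4.61%), 6 of 1547 (0.388%) and 1 of 433 (0.231%). The interval of the last value runs from 0.00585% to 1.28%, so that the fibroblast gene cluster and the Egfl7 clusters could not be told apart in the second run. Of all cells, the Ptprc cluster made up 3.36% in run 1 and 7.03% in run 2, and it held 14 of 57 and 7 of 15 mitotic cells.

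**Figure D3:**
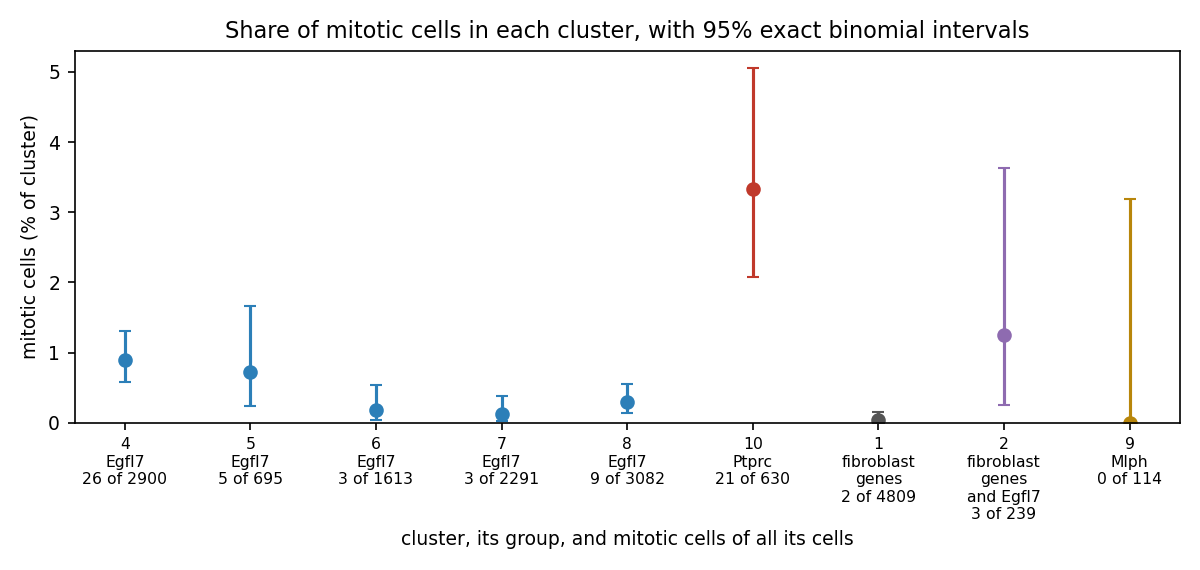
Mitotic cells as a share of each cluster of at least 100 cells (in %), with 95% exact binomial intervals, from the clustering without strongly raised genes. Cluster 10, marked by Ptprc, has the highest share (3.33%), and cluster 1, with the fibroblast genes, has 2 mitotic cells among 4809.

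The mitotic cells of the Ptprc cluster held leukocyte and macrophage genes. Ptprc was found in 19 of the 21, with a median of 5 UMIs and at most 33, and Mrc1, the mannose receptor of tissue macrophages, in 17 of the 21, with a median of 4 and at most 57. The other 609 cells of that cluster held Ptprc in 94.3% and Mrc1 in 67.5% of cells. By level, Ptprc was at 11.7 in mitotic and 13.6 in other cells of the cluster, and Mrc1 at 15.4 and 13.4. All 6 listed leukocyte genes and all 6 listed macrophage genes were found in a larger share of this cluster than of all cells, though 1 of the former and 0 of the latter are among its 10 leading genes, and the cluster is called by Ptprc. Over all mitotic cells the leukocyte list summed to 5.78 UMIs per 10000, against 0.940 in other cells. The macrophage list summed to 6.57 against 0.942, the endothelial list to 6.94 against 7.88 and the fibroblast list to 11.5 against 17.9. Few genes made up most of each sum, so the lists cannot be set against each other. Ptprc held 191 of 338 leukocyte UMIs, Mrc1 244 of 384 macrophage UMIs and Egfl7 223 of 406 endothelial UMIs. Postn, Col5a2 and Fbn1 held 237, 198 and 156 of 673 fibroblast UMIs. The leukocyte and macrophage lists share Fcer1g and Spi1. The T and NK cell list was at 0.188 against 0.0726, a ratio of 2.59 (1.29 to 4.66). It had 11 UMIs in mitotic cells, of which Cd247, the zeta chain of the T cell receptor complex, held 10 in 5 cells, and Cd28, Icos and Ctla4 were at 0. Few UMIs came from the other lists, with the cardiomyocyte list at 24, the melanocyte list 4 with Pax3 at 0, the Schwann cell list 4, the B cell list 1 with Fcrla at 0, and the mural list (Rgs5, Rgs4 and Des) 0. None of the 46 mitotic cells of the Egfl7 clusters held a UMI of Ptprc or Mrc1. Taking 3 counts as what a count of 0 allows, up to 6.52% of such cells could hold a UMI, which does not limit the cells that express the gene. In the other cells of the Egfl7 clusters 0.702% held Ptprc and 0.949% Mrc1, at a median depth of 5228 UMIs against 8836.5 in the mitotic cells.

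Egfl7 was found in 43 of the 46 mitotic cells of the Egfl7 clusters, with a median of 3 UMIs and at most 19, at a level of 5.09 against 6.23 in the other cells there. It was found in 4 of the 21 mitotic cells of the Ptprc cluster, 19.0%, against 18.4% of the other cells of that cluster and 5.99% of those of the fibroblast gene cluster. Prox1, a transcription factor of lymphatic and valve endothelium, was found in 26 of the 46 and in 0 of the 21. Over all mitotic cells, 0 of the 3 tested genes of the endothelial list (Egfl7, Thbd and Prox1) passed the ratio of 2 in either direction, against 24.5% of all 895 genes, and a count over 3 genes says little.

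The 46 cells were spread unevenly over 5 Egfl7 clusters, with 26 of 2900 cells in cluster 4 (0.897%, 0.586% to 1.31%), 5 of 695 in cluster 5 (0.719%), 9 of 3082 in cluster 8 (0.292%), 3 of 1613 in cluster 6 (0.186%) and 3 of 2291 in cluster 7 (0.131%, 0.0270% to 0.382%). In this clustering the intervals of clusters 4 and 8 do not overlap (the upper bound in cluster 8 is 0.554%). Those of clusters 4 and 5 do. In the first clustering, where 33 mitotic cells lay in the mixed cluster, the 2 clusters with the leading genes of clusters 4 and 8 had overlapping intervals. The one led by Tmem163 and Xirp2 held 4 of 2969 cells (0.135%, 0.0367% to 0.345%). The one led by Kif26b held 5 of 2974 (0.168%, 0.0546% to 0.392%). At resolution 1.0 these shares were 0.137% and 0.207%, and at 0.2 they were 0.749% and 0.239%. The 9 mitotic cells of cluster 8 carried its leading genes, with Kif26b, a kinesin, at 7.63 against 8.58 in its other cells and Prox1 at 4.91 (3.48 to 6.74) against 5.74 (5.62 to 5.86).

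The 26 mitotic cells of cluster 4 held less of the 4 genes that lead it than its other cells did. Xirp2, an actin-binding protein, had 0 UMIs in them, with an upper interval bound of 0.167, against 2.03 in the other cells of the cluster. Tmem163, a zinc transporter, had 3 UMIs, a level of 0.136 (0.0279 to 0.396) against 1.66. Hdc, histidine decarboxylase, had 1 UMI, and Kcnn3, a potassium channel, had 26 UMIs in 10 of the cells, a level of 1.17 (0.767 to 1.72) against 3.02. Egfl7 was found in 24 of these 26 cells, at 3.75 (2.99 to 4.65) against 3.06. Tgfb2, a ligand of the TGF-β pathway, was at 5.56 (4.62 to 6.63) in 13 of the 26 cells, against 0.915 in the other cells of cluster 4 and 6.71 in those of cluster 6, while Kcnh1, a leading gene of cluster 6, had 1 UMI. These genes were chosen after their values were seen. The 26 cells are called here only mitotic cells of the Egfl7 clusters.

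The genes with the largest ratios beyond the 10 belonged to cell division, and 31 of the 132 raised genes were on a cell cycle list. A gene was called raised where its level was at least 2 times that in other cells, and lowered where it was at most 0.5 times, with the interval of the ratio on the same side of 1 and at least 30 UMIs in mitotic cells or expected there from the level in other cells. Of 895 genes with that many UMIs, 15.9% were called raised and 8.6% lowered, that is 142 raised, of which 132 beyond the 10 genes, and 77 lowered. Of the 132, 56 were so scarce in other cells (under 15 UMIs expected) that they could enter only by being raised, so their number has no weight of its own. Of the 829 genes expected at 15 UMIs or more, 76 were raised (9.17%). A UMI was found in at least 50% of mitotic cells for 51 of the 132 genes, and 1 gene, Sele, had over 50% of its UMIs in 1 cell. Sele, an adhesion receptor of activated endothelium, had 31 UMIs in 3 mitotic cells, 28 of them in 1.

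Of the 25 genes with the largest ratios beyond the 10, those of spindle assembly and chromosome segregation are given first. Tpx2, which activates Aurora A on spindle microtubules, had 219 UMIs in 59 of the 72 cells and 110 in all 16311 others, a ratio of 328 (259 to 416). Nusap1, which bundles spindle microtubules, was 187 times higher (153 to 229) and was found in 49 cells. Bub1b, the checkpoint protein BubR1, was 186 times higher (141 to 247) and was found in 45 cells. Knstrn, a partner of astrin at the kinetochore, was 179 times higher, and Sgo2a, a shugoshin that guards centromeric cohesin, 166 times. Aurka, the Aurora A kinase, was 154 times higher (107 to 223) and was found in 30 cells. Nsl1 and Spc25, subunits of the kinetochore's microtubule-binding network, were 110 and 89.3 times higher, Fam83d, which brings a kinase to the spindle, 71.6 times, Kif18a, a kinesin that aligns chromosomes, 29.7 times, and Cenpl, of the inner kinetochore, 19.5 times.

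Genes of mitotic entry and of cytokinesis had ratios in the same range. Ccna2, cyclin A2, was 198 times higher (127 to 311) with 47 UMIs in 30 cells. Ect2, the exchange factor that starts the cleavage furrow, was 191 times higher (153 to 239), and Arhgap11a, a GTPase-activating protein of dividing cells, 59.4 times. Ncaph, a subunit of condensin, was 120 times higher, Mastl (Greatwall), the kinase that restrains the phosphatase PP2A during mitosis, 56.7 times, Trim59 46.5 times, and Plk4, the kinase that licenses centriole duplication, 27.8 times. Genes of DNA replication and repair stood beside them. Dtl, which targets replication licensing factors for destruction, was 149 times higher (106 to 210), Ube2t, the E2 enzyme of the Fanconi pathway, 145 times, Exo1, an exonuclease of mismatch repair, 107 times, and Bard1, a ubiquitin ligase subunit of DNA repair, 34.6 times. Phf19, a Polycomb-associated protein, was 19.4 times higher, and the unnamed gene BC055324 21.5 times.

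By list, all 13 listed genes of the spindle and kinetochore list had a ratio of at least 2, with a median ratio of 36.2, and 11 of these had enough UMIs and were called raised. All 12 listed genes of the list for mitotic entry, exit and chromosome structure had a ratio of at least 2, with a median of 37.2, and 11 were called raised. Of the 18 listed genes of the G1/S and replication list, 16 had a ratio of at least 2, with a median of 9.01, and 9 of 11 with enough UMIs were called raised. These counts stand beside 15.9% raised over all 895 genes, and 9 of the 11 spindle genes, 7 of the 11 entry and exit genes and 6 of the 9 replication genes could enter only by being raised, so the counts carry no weight of their own. The median ratio of all 895 genes with enough UMIs was 1.04. The exceptions were Orc2 and Orc4, subunits of the origin recognition complex, at 1.66 and 0.715.

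Genes that are common in resting cells had smaller ratios. Hjurp, the chaperone that loads centromeric histone, was at 7.75 against 1.32 (5.88 times), and Smc4, the ATPase of condensin, at 7.37 against 0.924 (7.97 times), with a UMI in 65 and 66 of the 72 cells. Cep152 and Cep250, centrosome proteins, were 8.18 and 2.31 times higher, Lbr, the lamin B receptor, 4.76 times, Cdc25b, the phosphatase that activates cyclin-dependent kinases, 3.63 times, and Nucks1 3.23 times. Dsn1, of the kinetochore, and Cks1b, a binding partner of cyclin-dependent kinases, had 27 and 12 UMIs in mitotic cells, too few for a call, and so had the replication genes Mcm10 and Mybl2, with 27 each. Of the replication genes, Rbl1 (p107, a pocket protein) was 13.1 times higher, Mcm3 and Mcm6, subunits of the replicative helicase, 9.14 and 2.83 times, Pcna, the sliding clamp, 5.97 times, Prim2, the large primase subunit, 4.33 times, and Rif1, which times replication, 2.09 times. Btg2, an antiproliferative gene and the single listed inhibitor, had 10 UMIs in mitotic cells, a ratio of 0.431.

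Cells with few and with many of the 10 genes differed in the levels of the cell cycle lists. The 24 cells with 3 to 5 of the genes had G1/S and replication genes at a summed 17.2 UMIs per 10000 (15.3 to 19.3), against 11.5 (10.3 to 12.9) in the 27 cells with 8 to 10. The spindle and kinetochore list went from 11.2 (9.63 to 12.9) to 39.2 (36.9 to 41.6), and the list for mitotic entry and exit from 13.1 (11.5 to 15) to 32.4 (30.3 to 34.6). The 21 cells with 6 or 7 genes lay between, with 15.1, 28.1 and 22.3. All other cells were at 3.78, 2.37 and 2.55. The lists share no gene with the 10, but the bins come from the 10 genes, whose own level rises with their number, so the rise of the spindle list stands as a description.

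Single genes showed the same split. Pcna went from 1.37 in cells with 3 to 5 genes to 0.223 in cells with 8 to 10, Dtl from 1.61 to 0.668 and Mcm3 from 0.836 to 0.260. Rbl1 did not, at 1.02 in the first bin and 1.52 in the last. Aurka went from 0.239 to 1.60, Nusap1 from 0.418 to 5.35 and Cdc25b from 0.538 to 2.56. Aurka or Ccna2 was found in 7 of 24 cells with few genes and in 21 of 27 with many, and Pcna, Dtl or Exo1 in 13 and 12. The cells with few of the 10 genes had a larger summed level of the replication list than of the spindle list, but so did all other cells (3.78 against 2.37). The 2 lists have 18 and 13 listed genes, so their sums cannot be set against each other within a bin. The name mitotic covers the cells with few genes only by the rule. Median depth was 6594.5, 8087 and 10055 UMIs in the 3 bins, and its part in the number of genes detected was not tested.

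**Figure D4:**
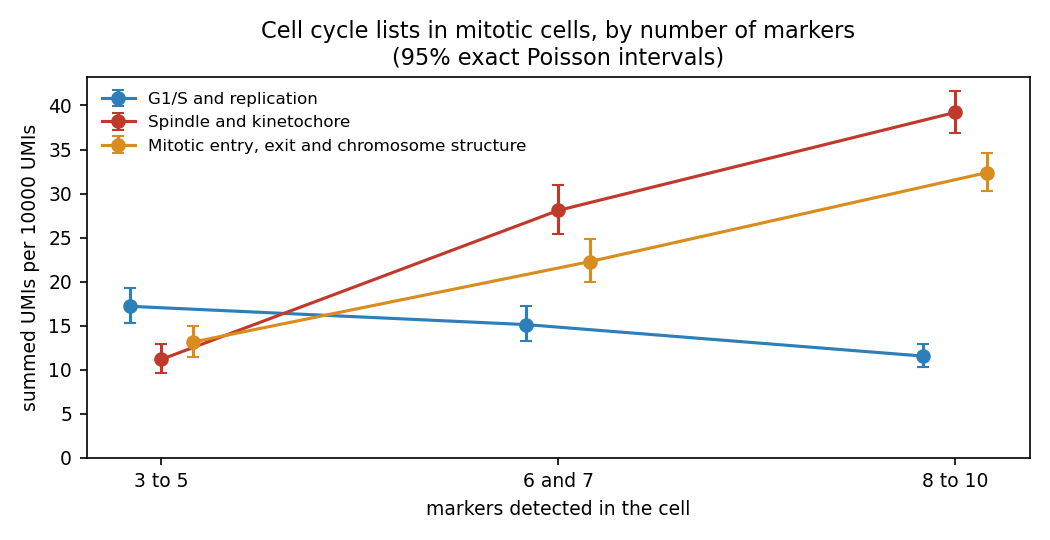
Summed level of 3 cell cycle lists, in UMIs per 10000 UMIs, in mitotic cells with 3 to 5, 6 and 7, and 8 to 10 of the 10 genes detected (24, 21 and 27 cells), with 95% exact Poisson intervals. The spindle and kinetochore list goes from 11.2 to 39.2 while the G1/S and replication list goes from 17.2 to 11.5.

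Some genes raised over all cells were also high in the other cells of the Ptprc cluster, which holds 29.2% of mitotic cells and 3.85% of all cells. When each gene was set against the level expected from the mitotic cells' own mix of groups, 88 of the 132 genes kept a ratio of at least 2 and 44 did not. Among the 44, named after their values were seen, were Arhgap15, a Rac regulator of leukocytes, 8.38 times higher against all cells and 1.19 against the mix, Mrc1 (8.07 and 1.15), P2ry12, a purine receptor of macrophages and microglia (8.65 and 1.29), Spi1, the transcription factor PU.1 (6.26 and 0.894), and Ptprc itself (6.32 and 0.891). For Tpx2, Nusap1, Dtl and the other genes at least 10 times higher, 28 of 29 kept a ratio of at least 2 against the mix, and the exception was Atp8b4 (12.9 and 1.89).

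Within the Egfl7 clusters the cell cycle genes were higher in the 46 mitotic cells than in the 10535 others. There 15.3% of 632 genes with enough UMIs were called raised and 6.33% lowered. These included 11 spindle genes, 11 entry and exit genes and 7 replication genes. Within the Ptprc cluster, where 13% of 301 genes were called raised and 7.64% lowered, 7 spindle genes, 5 entry and exit genes and 2 replication genes were called. The 21 cells held 157226 UMIs in all, and the 46 cells 397171. Of the 132 genes, 26 were called raised in both groups, 45 in the Egfl7 clusters alone, 3 in the Ptprc cluster alone and 58 in neither, and differences between these counts were not tested. The 132 were called over all mitotic cells, both groups among them, so these counts are a description.

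Tpx2 was 422 times higher within the Egfl7 clusters and 370 within the Ptprc cluster, Smc4 7.28 and 7.48 times, and Hjurp 6.39 and 7.14 times. Arhgap11a was 162 and 4.91 times higher, and Rbl1 20.6 and 2.89 times (20 UMIs in the Ptprc cluster, too few for a call). In other cells of the Ptprc cluster they were at 0.388 and 0.440, against 0.00900 and 0.0646 in other cells of the Egfl7 clusters. Among mitotic cells the groups could not be told apart in Arhgap11a and Rbl1, with ratios of the Egfl7 to the Ptprc group of 0.765 (0.484 to 1.23) and 1.05 (0.617 to 1.85). The 10 genes chose the cells, so their levels in the Egfl7 and the Ptprc group are a description, for example 6.97 and 8.01 for Knl1, 8.76 and 6.11 for Cenpf and 0.806 and 0.191 for Nek2.

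**Figure D5:**
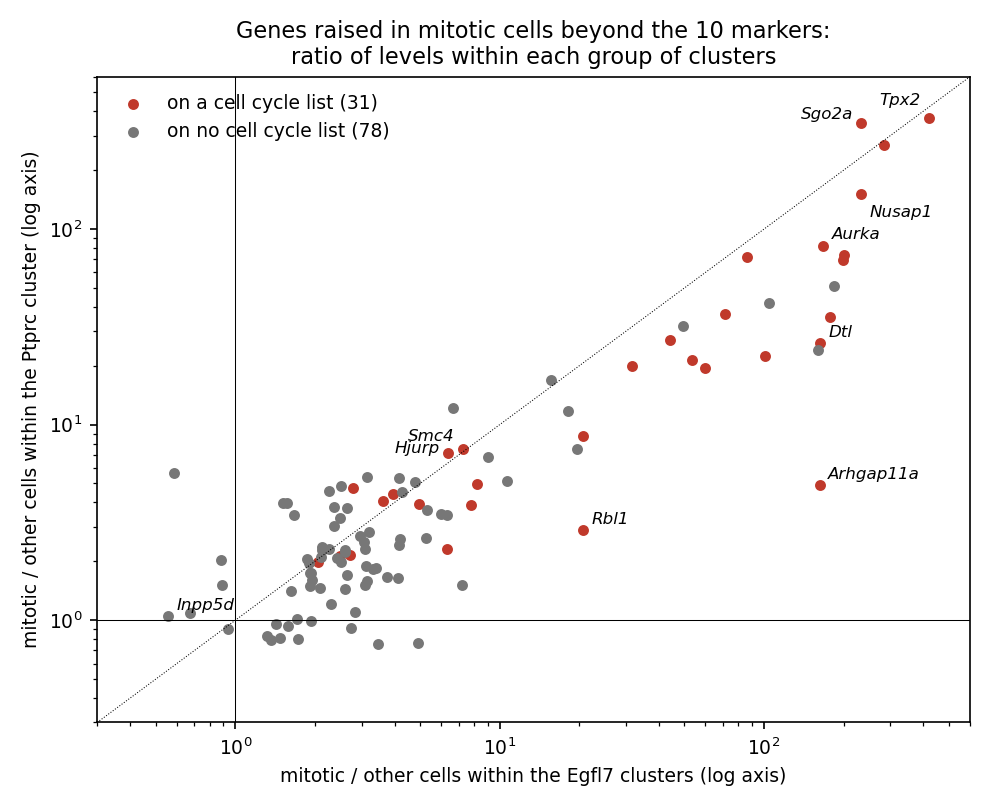
Ratio of the level in mitotic cells to that in other cells within the Egfl7 clusters (horizontal, log axis) and within the Ptprc cluster (vertical, log axis) for 109 of the 132 raised genes, those with at least 5 UMIs in the mitotic cells of each group. All 31 genes of the cell cycle lists lie above 1 on both axes, and 30 of them are at least 2 on both. The genes drawn were called raised over all mitotic cells, which include the cells of both groups, so their places are a description and no test.

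Some raised genes that are on no list are given as examples. Ckap5, a microtubule polymerase, was at 5.23 against 1.10 (4.77 times, and 4.8 and 5.10 times within the Egfl7 clusters and the Ptprc cluster). Ptma, prothymosin alpha, was at 6.87 against 2.50 (2.75 times, 2.27 and 4.58 within), Anp32e, a chaperone of histone H2A.Z, 3.87 times (3.14 and 5.43 within), and Dut, the dUTPase that keeps uracil out of DNA, 5.71 times (9.04 and 6.85 within). Lin9, of the complex that represses or activates cell cycle genes, was 11.6 times higher (10.7 and 5.15 within), and Mybl1, a transcription factor of the Myb family, 17.3 times (18.1 and 11.7 within). Within the Ptprc cluster only Ckap5 and Ptma of these 6 had enough UMIs for a call. These were named after their values were seen.

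Between the mitotic cells of the 2 groups, 104 of 625 genes with at least 30 UMIs in one group differed at least 5 times, 62 of them higher in the Egfl7 group. Since these genes also made the clusters, this describes the groups and is no test of them. The genes with the largest difference had 0 UMIs on one side. Arhgap15 had 342 UMIs in the 21 cells of the Ptprc cluster, Mrc1 242, Ptprc 184 and Atp8b4, a phospholipid flippase, 102, all with 0 in the other group. On the other side Prox1 and Tm4sf1, a surface protein of endothelium, had 70 UMIs each in the Egfl7 group, Kif26b 67, the laminin gene Lama5 32 and Sele and Bend7 31 each, all with 0 in the Ptprc group. Tpx2, with 148 and 66 UMIs, and Smc4, with 296 and 119, were found in both groups.

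The lowered genes included genes of the fibroblast list, whose cluster held 2 mitotic cells. The 10 with the smallest ratios were Pde1a, a calcium-dependent phosphodiesterase (0.0787, 0.0419 to 0.135), Prg4, lubricin (0.0828), the olfactory receptor gene Olfr1033 (0.0990), the potassium channel subunit Kcnab1 (0.104), Dpt (0.107), Igfbp5, an insulin-like growth factor binding protein (0.108, 0.0829 to 0.137), Fam78b (0.124), the potassium channel Kcnq5 (0.125), the oxysterol hydroxylase Cyp7b1 (0.128) and the kinase Dclk1 (0.129). Of the 77 lowered genes, 41 stayed at or under 0.5 against the level expected from the mitotic cells' mix of groups. Igfbp5 was among them, at 0.101, with 0.0416 within the Egfl7 clusters and 0.935 within the Ptprc cluster, whereas Prrx1 and Col3a1 were at 0.865 and 0.768. Of the 10 listed genes of the fibroblast list, 8 had enough UMIs. Lowered were 5 of these 8 (Prrx1, Col3a1, Dpt, Fap and Col6a3), beside 8.6% lowered over all 895 genes. Fbn1, which encodes fibrillin-1, was at 2.67 against 2.81, Col5a2 at 3.39 against 4.90 and Postn at 4.05 against 3.73.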

How the data were processed

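Libraries of single cells or single nuclei of mitral valves were made by the authors with 10x Genomics chemistry. They were processed, per the labels, with Cell Ranger (version 7.1.0) and build mm10, and the authors then filtered and log-normalized the cells in Seurat. What was deposited is 1 pooled matrix on a natural log scale, in which 1 was added to a cell's UMIs per 10000 before the log. UMIs and cell totals were recovered as whole numbers within 0.02. Of 3265 genes, 1 with 11958 empty values was left out.

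The members and the gene lists were chosen with earlier results of these data known. Mitotic cells were those with at least 3 of 10 genes above 0. The cells carry no sample, so, as planned, no test or count model was used, and levels, shares and ratios are given with exact Poisson, binomial and conditional intervals (95%). Genes needed 30 UMIs in mitotic cells or expected there, a ratio of 2 in either direction and an interval on that side of 1. Named were the 10 genes, 5 lineage genes, the 12 genes of each cell cycle list with most UMIs, the 25 raised genes with the largest ratio, the 10 lowered with the smallest, genes of the cell type lists, and the 10 differing most between the mitotic cells of the 2 largest groups. Clusters came from 2000 variable genes (scaled, clipped at 10), 50 principal components, 15 neighbours and Leiden at resolution 0.5 (scanpy 1.11.5, igraph 0.11.9, seed 1). A cluster was marked by Ptprc or Mlph where the share of cells with a UMI was at least 5 times that of all cells, by the fibroblast genes where Prrx1, Col3a1 and Dpt were all above it, and by Egfl7 where that gene was, a rule set after seeing the data. Depth was matched by thinning to 2000 UMIs. The contrast was tested on simulated data. Motifs were searched in RefSeq promoters, 250 bases before the start. Genes of other chromosomes were not analysed here, and a few genes that the naming rule or the lists hold are not reported here.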

Additional observations from a re-analysis of the deposited data

How the results depend on the processing

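Of 220 recomputed values, 198 stayed within the counting interval of the reported value, or within 1.5 times a count, and no called value changed direction. Many of the 220 come from settings that hardly change the members, so the count of 198 has little weight. One of the 10 genes was left out at a time, which kept 70 mitotic cells without Bub1 and 72 without Nek2. Barcodes found in both runs were also left out, and 0 of them belong to a mitotic cell. Without a minimum 303 genes were raised beyond the 10, with at least 100 UMIs 42, at a ratio of 1.5 220 and at a ratio of 3 75. Against other cells of the same group, 112 genes with enough UMIs had a ratio of at least 2. With the clustering added after seeing the data 93 had. These counts set no condition on the interval, so they are not counts of raised genes as defined above. In the second run of barcodes alone, with 15 mitotic cells, the share of mitotic cells was 0.694%, 50 genes were raised, the ratio of Egfl7 was 0.48, of Col3a1 0.0678 and of Ptprc 4.83, and 46.7% of mitotic cells were in the Ptprc cluster, 33.3% in the mixed cluster and 0% with the fibroblast genes. In the first run alone the ratio of Egfl7 was 1.08, on the other side of 1 from the second run. With members chosen at 2000 UMIs per cell the ratio of Ptprc was 5.25. With possible doublets left out, a step that itself removes cells with fibroblast genes, Prrx1 was at 0.0432 and Dpt at 0.0254. The share of mitotic cells in the Egfl7 clusters was 23.6% as planned, 63.9% at resolution 0.2, 65.3% at 1.0, 58.3% from each cell's own UMIs and 63.9% with strongly raised genes left out. The share in the mixed cluster was 45.8% as planned and 4.17% at resolution 1.0 and with those genes left out. No paired analysis was possible because no barcode names a sample or a replicate. With 72 cells in 1 pooled matrix, spread between mice could not be measured, and fewer cells and less RNA per cell cannot be told apart in a summed level.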
